A study of Rattus norvegicus with 6 samples.

Results

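The ADAMTS proteases are secreted zinc metalloproteinases that carry thrombospondin repeats and cut proteins of the extracellular matrix. The 10 described here were taken by gene symbol from the deposited gene table, and all 10 were present among its 19088 genes. They are the aggrecanases Adamts1, Adamts4, Adamts5, Adamts9 and Adamts15, the procollagen N-proteinases Adamts2 and Adamts14, the pair Adamts7 and Adamts12, and Adamts6. Poly(A) RNA was sequenced from primary cells of the nucleus pulposus, which is the gel-like core of the intervertebral disc, from rats of the strain labelled SD. In the rShh group (n = 3) the cells had received rShh, recombinant Sonic hedgehog, which signals through Patched and Smoothened to the GLI factors, for 48 h (200 ng/ml, in DMSO). In the Control group (n = 3) they had received DMSO for 48 h, and both groups grew in serum-supplemented medium. The labels give no age or sex and do not state if replicates were independent cultures or animals. The p-values therefore reflect only variation among these samples, which may be technical.

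Aggrecanases cut the core proteins of aggrecan and versican, the large proteoglycans that hold water in the disc, and their activity is a known part of disc and cartilage breakdown. Procollagen N-proteinases remove the amino-terminal propeptide of fibrillar procollagens, a step that lets collagen fibrils assemble. The proteases are made as zymogens that furin-like convertases activate, and TIMP3 is their best known inhibitor.

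Gene counts summed to between 50758195 and 55501124 per Control sample and between 65116846 and 70031072 per rShh sample. Mitochondrial transcripts were 1.97% to 2.28% of a Control library and 3.25% to 3.36% of an rShh library. Chosen for having no count in any Control library and many in every rShh library, 4 chromosome Y genes had 13442 to 14526 counts together in each rShh library. Other chromosome Y genes are not included in that count. The groups may therefore hold cells of different animals or sexes. For every difference between the groups given here, the source of the cells and the treatment cannot be told apart. Of the nucleus pulposus and notochord markers, 10 of the 11 found were above 1 CPM (library-size-scaled counts) in at least 1 group, and their summed level was 348 to 374 CPM in the Control group and 1020 to 1054 CPM in the rShh group. The rise of that sum was carried by Acan (56.5 and 586 CPM) and Hif1a (78.6 and 253 CPM). In the Control group Pax1 was the highest of these markers. By the edgeR test described below, 4 notochord and nucleus pulposus markers were lower in the rShh group. They were Krt8 (12.6 and 2.11 CPM), Cd24 (51.2 and 15.4 CPM), Foxa2 (2.09 and 0.588 CPM) and Pax1 (89.8 and 68.5 CPM). Acan and Hif1a were called higher, as were Sox9 (2.34 and 4.67 CPM) and Ca3 (17.7 and 59.4 CPM). Foxf1 (47.0 and 50.8 CPM) did not pass the threshold. Krt18 was near 0 in both groups, and Col2a1, also called lower, was at 1.61 CPM and 0.107 CPM. Pericyte and muscle markers, led by Cspg4 and Myh11, summed to 252 to 277 CPM and 762 to 782 CPM, with 4 of 5 above 1 CPM. Annulus and tendon markers summed to 135 to 197 CPM and 108 to 112 CPM, but only Scx was lower (155 and 51.8 CPM), and Mkx (16.96 and 21.5 CPM) and Thbs4 (0.551 and 36.9 CPM) were called higher. The leukocyte, epithelial and erythroid markers found were each below 1 CPM, and of the endothelial ones Tek was at 5.71 and 1.76 CPM. The part of these differences in the results was not tested.

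The upstream sequences of 4 genes that stand out in the results are shown, for description only. Adamts1 is the most abundant member, Adamts2 and Adamts14 moved in opposite directions, and Adamts6 rose most. Each is the 250 bases before the RefSeq start in GRCr8, written 5′ to 3′ along the gene, at chr11:38427385-38427634 (minus strand), chr10:35421780-35422029 (plus), chr20:29762683-29762932 (minus) and chr2:37155038-37155287 (plus). Capitals mark matches on either strand to 3 motifs, and adjoining matches form 1 run of capitals. The GC box, which binds the SP family of factors, reads GGGCGG. The CCAAT box is named by its letters. The TATA box, a core promoter element, reads TATAAA.
Adamts1: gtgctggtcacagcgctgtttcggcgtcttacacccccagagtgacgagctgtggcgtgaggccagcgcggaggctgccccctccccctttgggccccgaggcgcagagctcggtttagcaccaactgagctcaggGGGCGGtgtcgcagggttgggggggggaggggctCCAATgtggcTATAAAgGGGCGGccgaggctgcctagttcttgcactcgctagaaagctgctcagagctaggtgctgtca
Adamts2: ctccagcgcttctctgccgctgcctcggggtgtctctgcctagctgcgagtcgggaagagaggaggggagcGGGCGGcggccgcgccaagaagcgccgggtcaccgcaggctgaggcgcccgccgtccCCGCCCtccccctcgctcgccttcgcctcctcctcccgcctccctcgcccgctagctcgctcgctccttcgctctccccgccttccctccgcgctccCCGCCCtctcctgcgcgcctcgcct
Adamts14: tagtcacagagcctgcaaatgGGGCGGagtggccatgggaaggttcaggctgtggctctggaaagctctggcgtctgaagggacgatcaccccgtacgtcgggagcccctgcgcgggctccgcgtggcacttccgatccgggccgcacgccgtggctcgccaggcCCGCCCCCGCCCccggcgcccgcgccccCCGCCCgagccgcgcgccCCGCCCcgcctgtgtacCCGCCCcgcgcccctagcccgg
Adamts6: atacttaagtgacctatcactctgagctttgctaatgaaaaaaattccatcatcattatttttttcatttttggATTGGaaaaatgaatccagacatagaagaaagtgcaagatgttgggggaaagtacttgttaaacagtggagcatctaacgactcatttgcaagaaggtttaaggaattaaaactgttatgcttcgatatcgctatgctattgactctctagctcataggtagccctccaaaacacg
The window of Adamts1 held a TATA box that began 70 bases before the start, a CCAAT box at 80 bases and 2 GC boxes. Those of Adamts2 and Adamts14 were GC-rich, at 75.6% and 76% G or C, with 3 and 6 GC boxes and neither of the other motifs. That of Adamts6 was 36% G or C and held a single CCAAT box. Across 33360 distinct windows of the same length the median was 51.6% G or C, and 30.5% held a GC box, 34.03% a CCAAT box and 12.9% a TATA box. The table had windows for 8 of the 10 members, without Adamts5 and Adamts15. The GLI consensus (GACCACCCA or TGGGTGGTC), the site that Hedgehog's transcription factors bind, was in none of the 8 and in 0.339% of all windows. The AP-1 motif TGANTCA, which reads the same on both strands, was in none of the 8 and in 6.35% of all windows. These counts describe letters in a short window only.

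All 10 members differed between the groups, 6 higher and 4 lower in the rShh group. Adamts6, Adamts14 and Adamts9 rose 3.60-fold, 2.92-fold and 2.84-fold in CPM, Adamts15 fell to a level 5.56-fold lower, and Adamts2 to 2.23-fold lower. Adamts1 and Adamts5, the most abundant aggrecanases, fell by less, and Adamts4, Adamts7 and Adamts12 rose by 1.28-fold, 1.17-fold and 1.25-fold. The groups did not overlap for any member. In bulk RNA, fewer cells of a type and less RNA per cell cannot be told apart. These calls are from edgeR's quasi-likelihood test on gene counts, with p adjusted over 14775 genes and a threshold of 0.05. By that rule 31.5% of all genes were higher and 28.8% lower, or 60.3% in all, and the groups were separate for 68.1% of genes, so a call by itself was common in these data. Changes of 2-fold or more were called upward for 3 members and downward for 2, against 13.0% and 5.71% of all genes. The median size of the log2 change, regardless of sign, was 0.77 over the members and 0.49 over all genes. The signed median was 0.27 over the members and 0.01 over all genes.

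**Figure D1:**
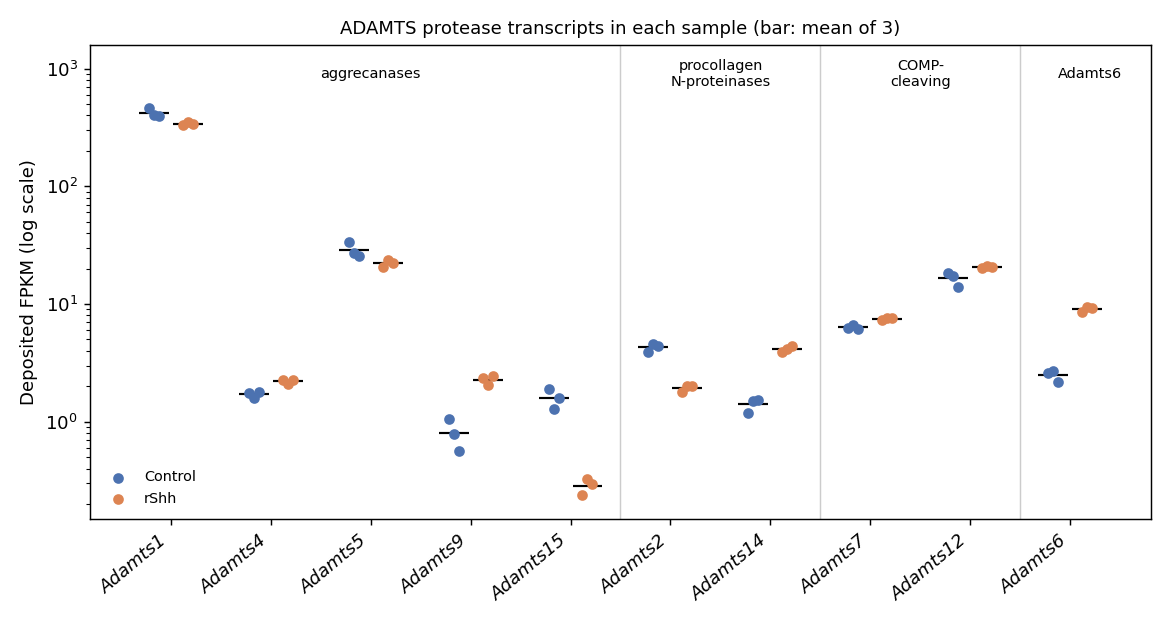
Deposited FPKM of the 10 ADAMTS genes (log axis), grouped by role; points are the 3 Control (blue) and 3 rShh (orange) samples and bars their means. Adamts1 sits at 329 to 463 FPKM and the other members below 34 FPKM, with Adamts15 lowest in the rShh group.

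Levels of different genes are compared in FPKM, which is scaled to transcript length. In the Control group the order ran from Adamts1 (422 ± 35.6 FPKM; mean ± SD, n = 3) through Adamts5, Adamts12, Adamts7, Adamts2, Adamts6, Adamts4, Adamts15 and Adamts14 to Adamts9 (0.799 ± 0.245 FPKM). The ranges of Adamts4 and Adamts15, and of Adamts15 and Adamts14, overlapped, so those neighbours did not differ beyond their spread. In the rShh group Adamts1, Adamts5 and Adamts12 were still the 3 highest, followed by Adamts6, Adamts7, Adamts14, Adamts9, Adamts4, Adamts2 and Adamts15. There the ranges of Adamts5 and Adamts12, and of Adamts9 and Adamts4, overlapped. Adamts6 stood below Adamts7 and Adamts2 in the Control group and above both in the rShh group. Adamts1 alone made up 86.5% to 87.3% of the members' summed FPKM in the Control samples and 82.6% to 83.0% in the rShh samples.

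Among the aggrecanases Adamts1, Adamts5 and Adamts15 fell, and Adamts4 and Adamts9 rose. Adamts1, which cuts versican and aggrecan, spans 25342126 to 25350974 of chromosome 11 (minus strand) in the deposited coordinates, whose genome build is not given in the sources used here. It was at 463, 405 and 399 FPKM in the Control samples and at 329, 349 and 341 FPKM in the rShh samples. Each rShh sample lay below each Control sample, and the log2 change was -0.32 (SE 0.05, edgeR adjusted p = 0.000526). Adamts5, regarded as a major aggrecanase of cartilage, lies next to it on the same strand (25410975 to 25456836), 60000 bases away, with no other gene of the table between. It was at 33.9, 27.0 and 25.6 FPKM in the Control samples and at 20.8, 23.7 and 22.5 FPKM in the rShh samples. Control replicate 1 was the highest, and the groups were separate by a narrow margin (log2 change -0.38, SE 0.09, edgeR adjusted p = 0.00543).

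Adamts4, the other classic aggrecanase (chromosome 13, 89622632 to 89634419), was at 1.77, 1.58 and 1.79 FPKM in the Control samples and at 2.28, 2.09 and 2.24 FPKM in the rShh samples. It rose slightly (log2 change 0.36, SE 0.11, edgeR adjusted p = 0.0140), but the call was lost without Control replicate 2 (0.0508) or rShh replicate 1 (0.0587), after quantile normalization (0.0587) and with limma on log2(FPKM + 0.1) (0.0664); all 4 are adjusted p-values, and each leaves 5 members higher. Adamts9, which cuts versican and is also needed in the secretory pathway (chromosome 4, 124660262 to 124858250), was at 1.05, 0.789 and 0.560 FPKM in the Control samples. In the rShh samples it was at 2.35, 2.04 and 2.44 FPKM. The groups were well apart although the Control samples spread widely (log2 change 1.503, SE 0.19, edgeR adjusted p = 7.41e-05).

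Adamts15, which cuts versican and aggrecan, lies on chromosome 8 at 31977001 to 32000378. It was at 1.89, 1.29 and 1.58 FPKM in the Control samples, from 504 to 766 counts, and at 0.239, 0.329 and 0.293 FPKM in the rShh samples, from 113 to 163 counts. This was the largest change in either direction among the members (log2 change -2.47, SE 0.18, edgeR adjusted p = 1.84e-06). Its neighbour Adamts8, a related protease outside the 10, begins 18181 bases away on the opposite strand, with no other gene of the table between. Adamts8 moved the other way, from 0.799, 1.27 and 1.39 FPKM to 3.46, 4.03 and 3.22 FPKM (log2 change 1.62, SE 0.20, edgeR adjusted p = 6.50e-05). Its share of the summed FPKM of the pair was 29.7%, 49.7% and 46.9% in the Control samples and 93.5%, 92.4% and 91.7% in the rShh samples. This pair was picked after its values were seen.

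Both procollagen N-proteinases changed, in opposite directions. Adamts2, the enzyme whose loss causes a form of Ehlers-Danlos syndrome with fragile skin (chromosome 10, 36098051 to 36304409), was at 3.88, 4.55 and 4.42 FPKM in the Control samples. In the rShh samples it was at 1.78, 2.02 and 2.01 FPKM (log2 change -1.15, SE 0.10, edgeR adjusted p = 3.92e-06). Adamts14, its close relative (chromosome 20, 30812353 to 30888751), was at 1.19, 1.51 and 1.54 FPKM in the Control samples and at 3.93, 4.17 and 4.41 FPKM in the rShh samples (log2 change 1.55, SE 0.12, edgeR adjusted p = 2.59e-06). Adamts2 was the higher of the pair in each Control sample and Adamts14 in each rShh sample. The share of Adamts14 in their summed FPKM was 23.6%, 24.9% and 25.9% in the Control samples and 68.8%, 67.3% and 68.7% in the rShh samples. The sum itself was 5.70 ± 0.547 FPKM and 6.11 ± 0.364 FPKM (SD, n = 3), a ratio of 1.07, and its groups overlapped. Adamts3, the remaining procollagen N-proteinase, had 8 to 20 counts per library, at 0.0629 ± 0.0065 and 0.0353 ± 0.0138 FPKM (edgeR adjusted p = 0.242).

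The summed aggrecanase transcripts were lower in the rShh group, unlike the N-proteinase sum. Over the 5 aggrecanases the sum was 502, 435 and 428 FPKM in the Control samples and 355, 377 and 368 FPKM in the rShh samples. The groups were separate, with a ratio of 0.806 of rShh to Control. Without Adamts1 the sum was 32.9 ± 4.97 FPKM and 27.1 ± 1.26 FPKM, a ratio of 0.822, and for Adamts4 and Adamts5 alone the ratio was 0.802. Adamts5 (28.8 and 22.3 FPKM) made up most of both reduced sums, while Adamts4 and Adamts9 rose. Adamts1 made up 92.3% to 93.1% of the aggrecanase sum in both groups, so the sum follows that gene. The aggrecanase sum was 98.9, 71.8 and 71.8 times the N-proteinase sum in the Control samples and 62.1, 60.9 and 57.3 times in the rShh samples. Sums over members are described without a test.

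**Figure D2:**
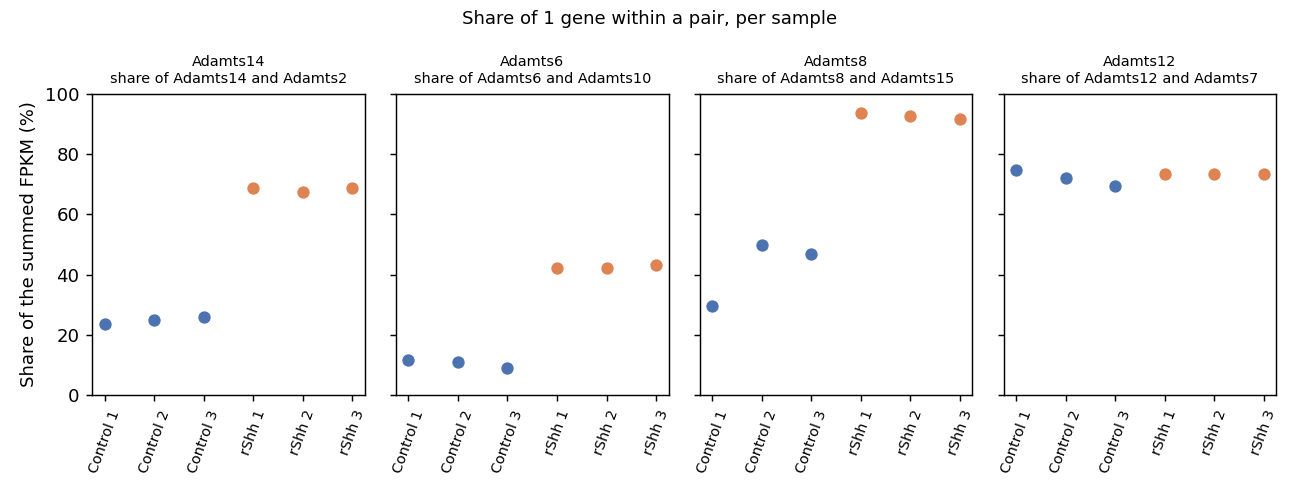
Share of the first gene in the summed FPKM of a gene pair (percent, from 0 to 100), for each of the 3 Control (blue) and 3 rShh (orange) samples. The shares of Adamts14, Adamts6 and Adamts8 are higher in each rShh sample, while that of Adamts12 lies between 69.5% and 74.6% in all 6 samples.

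Adamts7 and Adamts12, which cut the cartilage protein COMP, both rose by small amounts. Adamts7 (chromosome 8, 97535777 to 97575655) was at 6.22, 6.66 and 6.16 FPKM in the Control samples and at 7.33, 7.59 and 7.60 FPKM in the rShh samples (log2 change 0.23, SE 0.06, edgeR adjusted p = 0.00987). Adamts12 (chromosome 2, 61039053 to 61340697) was at 18.3, 17.2 and 14.0 FPKM and at 20.3, 21.0 and 20.8 FPKM (log2 change 0.32, SE 0.08, edgeR adjusted p = 0.00732). For both genes the lowest rShh sample stood above the highest Control sample, and for Adamts12 Control replicate 3 was the lowest. The share of Adamts12 in the sum of the pair was 69.5% to 74.6% in the Control samples and 73.2% to 73.5% in the rShh samples, which overlap. Comp itself, their substrate, was at 1.96 ± 0.225 and 1.76 ± 0.0747 FPKM and did not pass the test (edgeR adjusted p = 0.324).

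Adamts6, a protease linked to fibrillin microfibrils and heart development (chromosome 2, 34374158 to 34586755), had the largest increase of the 10. It was at 2.61, 2.70 and 2.19 FPKM in the Control samples and at 8.54, 9.37 and 9.30 FPKM in the rShh samples. The 2 sets of values were far apart (log2 change 1.85, SE 0.10, edgeR adjusted p = 1.58e-07). Adamts10, its closest relative and outside the 10, fell from 20.0, 21.8 and 22.3 FPKM to 11.7, 12.9 and 12.3 FPKM (log2 change -0.81, SE 0.07, edgeR adjusted p = 3.07e-06). The share of Adamts6 in the sum of the pair was 11.5%, 11.0% and 8.92% in the Control samples and 42.1%, 42.2% and 43.1% in the rShh samples. Their sum was 23.9 ± 1.07 FPKM and 21.4 ± 0.997 FPKM. This pair, too, was picked after its values were seen.

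The isoform table held 14 transcripts of the members, a single transcript for 6 genes and 2 each for Adamts2, Adamts6, Adamts7 and Adamts14. In edgeR's quasi-likelihood test of the deposited isoform counts, 7 were higher, 5 lower and 2 did not pass, against 23.8% higher and 21.3% lower of 18180 isoforms tested, or 45.1% called in all. The longer Adamts14 transcript, ENSRNOT00000090004 with 22 exons, had 395, 482 and 466 counts in the Control samples and 1440, 1590 and 1615 in the rShh samples. The shorter one, ENSRNOT00000063875 with 21 exons, had 0 counts in all 3 Control samples and 76, 93 and 74 in the rShh samples. Set against a floor of 3 counts per Control library, it was at least 21.7-fold higher as far as counting error goes. The floor does not cover how reads were divided between the 2 overlapping transcripts. The shorter transcript made up 7.09%, 7.78% and 6.22% of the FPKM summed over both transcripts in the rShh samples. The rise of the gene thus lay mostly in the longer transcript.

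Both Adamts2 transcripts fell, ENSRNOT00000083568 with a log2 change of -1.12 (edgeR adjusted p = 0.000265) and ENSRNOT00000083971 with -1.51 (edgeR adjusted p = 0.0473). Of the FPKM summed over both, the first made up 79.4% to 85.9% in the Control samples and 77.8% to 91.2% in the rShh samples, which overlap. Both Adamts6 transcripts rose. The full-length one of 24 exons, ENSRNOT00000016997, carried 85.4% to 90.8% and 89.0% to 93.9% of the FPKM summed over both. Neither Adamts7 transcript passed the test (edgeR adjusted p = 0.210 and 0.283), although the gene did. Of the members' isoforms 4 were higher when Control replicate 2 was left out, or rShh replicate 1, or rShh replicate 2, and 3 were lower without either of those rShh samples.

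The rest of the family also moved both ways. Of 17 other ADAMTS and ADAMTS-like symbols 13 were found and 10 tested, with 3 higher, 3 lower and 4 not past the threshold. By the same test 31.5% of all genes were higher and 28.8% lower, so calls in both directions were common. Adamtsl4, a secreted relative without protease activity that binds fibrillin microfibrils, rose from 14.1 ± 0.364 to 34.5 ± 1.01 FPKM (edgeR adjusted p = 2.86e-08). Adamtsl3 rose from 9.58 ± 0.528 to 15.7 ± 0.594 FPKM (edgeR adjusted p = 3.15e-06), and Adamts8 is given above. Adamts10 fell, as did Papln, from 0.272 ± 0.0197 to 0.103 ± 0.0158 FPKM (edgeR adjusted p = 0.00516). Adamts19 fell as well, from 178, 135 and 158 counts to 0, 36 and 19 (edgeR adjusted p = 0.00210). Adamtsl5 was at 12.4 ± 0.946 and 12.8 ± 0.643 FPKM (edgeR adjusted p = 0.762). Adamts20 and Adamtsl2, at most at 0.104 FPKM in a sample, did not pass (edgeR adjusted p = 0.722 and 0.271). Adamts13, Adamts16 and Adamts17 had at most 32 counts in a library and were not tested. Adamts18, Adamtsl1 and Thsd4, also known as Adamtsl6, were not found by symbol among the genes of the table.

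**Figure D3:**
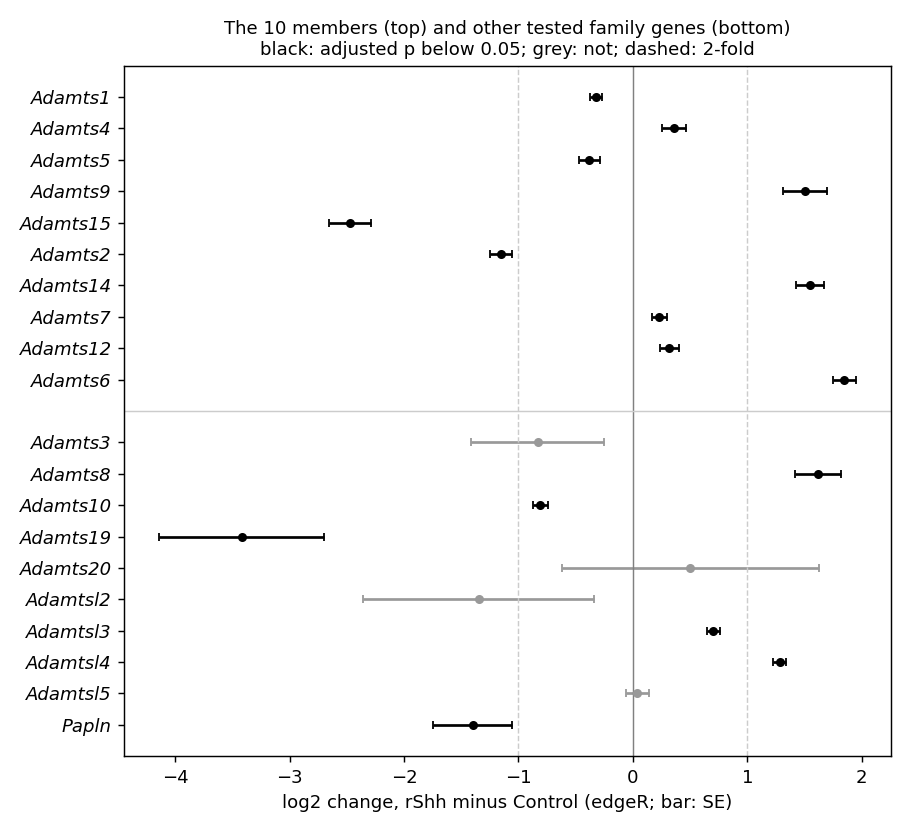
Log2 change between rShh and Control (edgeR; bars are SE) for the 10 members above and the 10 other tested ADAMTS and ADAMTS-like genes below. Black points passed the adjusted p threshold, grey ones did not, and dashed lines mark 2-fold. Among the members Adamts6, Adamts14 and Adamts9 lie beyond it on the right and Adamts15 and Adamts2 on the left. Among the other genes Adamts8 and Adamtsl4 lie beyond it on the right, and Adamts19, Papln and Adamtsl2 (grey) on the left.

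Genes around the proteases were taken from a list of 42 inhibitors, activators, substrates and partners, of which 36 were found and 33 tested. Of these 16 rose, 14 fell and 3 missed the threshold, and the median log2 change was -0.10. Rose and fell refer to the same edgeR test as for the members, by which 31.5% of all genes were higher and 28.8% lower. Among inhibitors, activators and clearance genes 4 rose, 6 fell and 1 did not pass. Timp3, the main inhibitor of aggrecanases, fell slightly from 12.4 ± 0.504 to 10.3 ± 0.394 FPKM (edgeR adjusted p = 0.0131). Timp1 rose from 166 ± 8.70 to 458 ± 14.6 FPKM and Timp2 from 399.6 ± 18.6 to 498 ± 3.65 FPKM, while Timp4 was near 0 and not tested. A2m, listed with these inhibitors, fell from 1.13 ± 0.214 to 0.0418 ± 0.0208 FPKM (edgeR adjusted p = 1.27e-06). That gene was named after its values were seen. Sdc4, a membrane proteoglycan reported to assist Adamts5, rose from 28.6 ± 1.54 to 81.1 ± 3.84 FPKM. Lrp1, the endocytic receptor that clears several ADAMTS proteases, fell from 134 ± 2.64 to 90.2 ± 3.78 FPKM. Furin, an activating convertase, was at 26.6 ± 1.58 and 25.0 ± 1.67 FPKM (edgeR adjusted p = 0.276). The other convertases listed did change: Pcsk5 fell from 10.3 ± 0.393 to 3.35 ± 0.402 FPKM (edgeR adjusted p = 1.74e-07) and Pcsk6 from 42.9 ± 3.57 to 17.4 ± 0.485 FPKM (edgeR adjusted p = 2.35e-07). Pcsk7 was called higher, at 6.25, 6.45 and 8.04 FPKM in the Control samples and 7.64, 10.03 and 8.66 FPKM in the rShh samples, which overlap (edgeR adjusted p = 0.0349). These 3 were named after their values were seen.

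Of the proteoglycan substrates and partners tested, 5 rose, 1 fell and 1 missed the threshold, against 31.5% higher and 28.8% lower of all genes. Acan, which encodes aggrecan, rose from 6.80 ± 0.905 to 71.0 ± 1.11 FPKM, and Vcan, versican, from 8.14 ± 1.297 to 19.9 ± 0.356 FPKM. The ratio of Acan to summed aggrecanase FPKM was 0.0116, 0.0176 and 0.0161 in the Control samples and 0.1999, 0.185 and 0.196 in the rShh samples, a 12.8-fold difference in group means. The ratio of Timp3 to the same sum was 0.0256 to 0.0294 and 0.0261 to 0.0297, which overlap. Both ratios are of transcripts and were chosen after values were seen.

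Of the procollagen substrates and processing genes tested, 2 rose, 6 fell and 1 did not pass, against 31.5% higher and 28.8% lower of all genes. Col1a1, the main fibrillar procollagen chain, fell from 5049 ± 181 to 2368 ± 22.2 FPKM, while Col3a1 rose from 249.6 ± 19.7 to 374 ± 4.32 FPKM. Col2a1 fell from 0.296 ± 0.0221 to 0.0183 ± 0.0245 FPKM, and Col1a2 was not found by symbol. Bmp1, the procollagen C-proteinase, fell from 24.8 ± 0.367 to 16.9 ± 0.431 FPKM, and its enhancer Pcolce from 561 ± 18.0 to 351 ± 5.60 FPKM. Serpinh1, the collagen chaperone, fell from 2200 ± 128 to 981 ± 43.3 FPKM. Of the 6 microfibril partners 5 rose and 1 fell. Fn1, fibronectin, rose from 1168 ± 49.9 to 2624 ± 136 FPKM and Fbn1, fibrillin, from 23.4 ± 1.17 to 40.3 ± 1.17 FPKM.

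**Figure D4:**
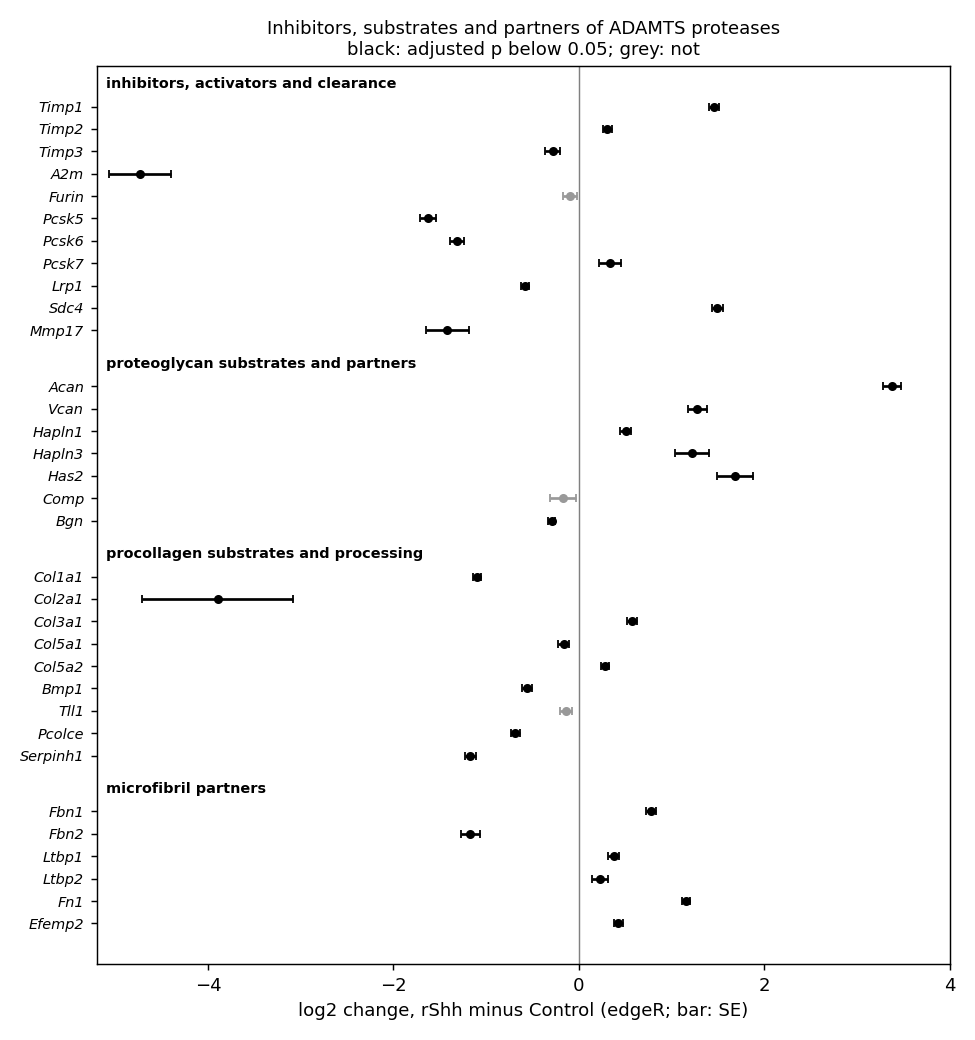
Log2 change between rShh and Control (edgeR; bars are SE) for the 33 tested inhibitors, substrates and partners, by role. Black points passed the adjusted p threshold and grey ones did not; Acan lies farthest to the right at 3.37 and A2m farthest to the left at -4.73.

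The genes whose profiles over the 6 samples were nearest to those of Adamts1 and Adamts2, the aggrecanase and the procollagen N-proteinase with the highest mean FPKM over all 6 samples, were found among 10048 named genes of at least 1 FPKM. Likeness is the root mean square difference of log2 CPM after each gene's mean is removed. For Adamts1 they were Mat2a (0.018), Drg1 (0.018) and Eef1a1 (0.026), and 34.1% of the genes lay within 0.2, so a profile with a change this small had many near matches. Eef1a1 has near-identical copies, so its value is uncertain. For Adamts2 they were Zfp219 (0.056), Zfp316 (0.056) and Hcn4 (0.059), with 4.02% of the genes within 0.2.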

How the data were processed

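Poly(A) RNA from 6 samples of primary rat nucleus pulposus cells was sequenced, 3 per group. Tools named in the submitters' processing notes are StringTie 1.3.4d, HISAT2 2.0.4, cutadapt 1.9, edgeR and DESeq2. How each was used, which genome build was aligned to and how strand was counted is not given in the sources used here. The authors deposited whole-number counts, not normalized, and values named FPKM in the file headers, a unit scaled by transcript length and by sequencing depth, for genes and isoforms. Isoform counts divide reads among overlapping transcripts, so they are estimates.

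Counts were tested with edgeR 4.0.16 in R 4.3.3: filterByExpr with a minimum count of 10, TMM scaling, glmQLFit and glmQLFTest, two-sided, group as the only term, Benjamini-Hochberg adjustment over all features tested, threshold 0.05. The SE is the log2 change divided by the square root of the F statistic. CPM is TMM-scaled. Limma 3.58.1 and DESeq2 1.42.0 served as alternatives, beside other scalings and filters, the replicate number as a block and leaving out each sample. The fits were tested on simulated data. Replicates differed by more than sampling noise (chi-square per degree of freedom 10.5 to 50.5), so none was counted as a repeat sequencing of the same library. That check cannot show that replicates were independent cultures or animals. Floors of 3 counts cover counting error only.

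The members and gene lists were chosen with earlier results of these data known. Named are all 10 members, the other family genes, fixed inhibitors and substrates with the 2 smallest p-values per role, and the 3 nearest profiles. Upstream sequences are from RefSeq (GRCr8).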

Additional observations from a re-analysis of the deposited data

How the results depend on the processing

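The log2 changes of the 10 members kept their direction in all 129 refits that gave a value, and their side of the threshold in 125; the other 4 were the lost calls of Adamts4 given above. Across settings Adamts15 ran from -2.64 to -2.11, Adamts6 from 1.53 to 1.91, Adamts14 from 1.10 to 1.62 and Adamts2 from -1.23 to -0.85. Limma on log2(FPKM + 1) with a minimum mean of 1 FPKM did not test Adamts15. Quantile normalization moved the median log2 change of all genes from 0.01 to -0.11. The aggrecanase ratio was 0.783 to 0.849 and the N-proteinase ratio 1.02 to 1.11 when samples were left out in turn. Among the other family genes 1 was lower with limma on log2(FPKM + 1), which tested 5, while 5 were lower without the count filter and 5 after quantile normalization; the cause was not tested for the last. When samples were left out, Adamts20 ran from -0.088 (without Control replicate 2) to 2.80 and Adamtsl5 from -0.035 (without Control replicate 1) to 0.077. Adamtsl5 was also at -0.045 after quantile normalization. Both were positive with all samples and TMM scaling, and neither passed the threshold in any of these. Of the isoforms 4 were higher and 3 lower with limma on log2(FPKM + 1), which tested 10; leaving out samples gave 4 to 7 higher and 3 to 4 lower. Same-numbered samples did not deviate together (correlations -0.06 to -0.02), and no sample correlated best with its own number. The numbers thus gave no sign of pairing, but correlations this weak cannot exclude it. Over all genes 4470 were higher and 3970 lower with the replicate block, against 4657 and 4257 without it. With the replicate block 6 members were higher and 4 lower, and 4 isoforms higher and 4 lower. The 2 further genes lower after quantile normalization were Adamts3 (log2 change -1.65, adjusted p = 0.0280) and Adamtsl2 (-2.13, adjusted p = 0.0418). Adamts3 had at most 20 counts and Adamtsl2 at most 25 in a library.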
